A study of Mus musculus with 6 samples.

Results

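The genes described here are 9 genes of ubiquitin-dependent protein breakdown in striated muscle: the F-box gene Fbxo32, the 3 MuRF genes Trim63, Trim54 and Trim55, and the ASB genes Asb2, Asb11, Asb14, Asb15 and Asb18. They were taken by gene name from a table of 46452 genes, and all 9 were among the 11996 genes tested, those with a mean level of at least 1 FPKM (fragments per kilobase of gene, corrected for sequencing depth). The genes were picked with their differences between the groups already known. Their own group differences are therefore given as a description. Where a gene is said to pass or miss the threshold used for all genes, that too is a description of this fit and no independent evidence of a difference.

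The hearts came from 10-day-old mice labelled Nat10-CKO (3 libraries) or Nat10flox/flox (3 libraries), in a series about NAT10 and heart development. Nat10 encodes an RNA acetyltransferase, "CKO" names a conditional knockout, and "flox" names an allele flanked by recombination sites. Per the labels, each library is from whole heart and stands for a separate biological replicate. Neither the Cre driver nor the deleted exons are stated in those labels, so the cells in which Nat10 was to be deleted are not known here.

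Ubiquitin ligases choose the proteins that are tagged with ubiquitin and sent to the proteasome. In muscle, the F-box protein atrogin-1, encoded by Fbxo32, brings substrates to a cullin-1 ligase, and the MuRF proteins are RING-finger ligases that sit on the sarcomere and on microtubules. ASB proteins carry ankyrin repeats and a SOCS box, through which they bring substrates to cullin-5 ligases. Fbxo32 and Trim63 are the best known genes of muscle wasting, and FOXO transcription factors induce both in skeletal muscle.

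Nat10 itself went against the label. It had 8.28, 8.66 and 10.2 FPKM in libraries labelled Nat10-CKO, against 3.75, 4.18 and 4.71 FPKM in the Nat10flox/flox libraries. The means were 9.03 ± 1.0 and 4.22 ± 0.481 FPKM (SD, n = 3 each), a 2.14-fold higher level in the libraries labelled Nat10-CKO, a log2 fold change of 0.94 ± 0.12 (SE, adjusted p = 0.00142 by limma). Every direction below therefore refers to the label and not to a measured loss of Nat10.

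Between 35243886 and 35854754 reads fell in genes in the libraries labelled Nat10-CKO, and between 31155521 and 38051266 in the Nat10flox/flox libraries. Mitochondrially encoded genes took 7.56% to 9.26% of reads in the libraries labelled Nat10-CKO and 16.6% to 18.3% in the Nat10flox/flox libraries. Of all tested genes, 40.5% passed the threshold (limma adjusted p under 0.05), 24.4% higher and 16.0% lower in the libraries labelled Nat10-CKO. The count of lower genes was 1924, and 1165 without Nat10flox/flox replicate 2 or 1162 without replicate 3. Nat10-CKO replicate 1 and Nat10flox/flox replicate 1 correlated least with the other libraries of their groups. Pearson's r over log2 values of the tested genes was 0.959 to 0.968 in pairs with Nat10-CKO replicate 1 and 0.949 to 0.951 in pairs with Nat10flox/flox replicate 1, against 0.987 and 0.985 for the remaining pair of each group.

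Markers of ventricular muscle were high in every library. Summed over 8 cardiomyocyte markers, the level was 13295, 18162 and 19215 FPKM in libraries labelled Nat10-CKO, against 17769 to 21495 FPKM in the Nat10flox/flox libraries, and 0 of the 8 passed the test. Nat10-CKO replicate 1 was the lowest library for this sum. Of 10 skeletal muscle markers, 8 stayed under 1 FPKM in every library, among them Myh1, Myh2, Myh4, Myod1 and Actn3, and the sum was 3.25 to 3.93 FPKM in libraries labelled Nat10-CKO and 1.65 to 2.30 FPKM in the Nat10flox/flox libraries. Of 5 atrial markers, Sln, Myl7 and Myl4 were also under 1 FPKM in every library, but Nr2f2 and Stard10 were not. Sln had 0 to 6 reads and Myl7 2 to 13 reads per library, which is little for hearts labelled as whole. Whether the atria were part of the samples was not tested. Myl4 had 39 to 220 reads over a listed gene length of 16315 bases, so its low FPKM depends on that length. Its values were higher in every library labelled Nat10-CKO than in any Nat10flox/flox library. Nr2f2 had 2.15 to 2.75 FPKM in libraries labelled Nat10-CKO and 2.95 to 3.75 FPKM in the Nat10flox/flox libraries. Stard10 had 4.39 to 6.01 FPKM and 7.12 to 14.1 FPKM, and it passed the test as lower. All 6 endothelial markers were lower in the libraries labelled Nat10-CKO, with a sum of 181 to 191 FPKM against 315 to 374 FPKM in the Nat10flox/flox libraries, and the sum of 5 blood markers was 423 to 535 FPKM against 689 to 1780 FPKM. The sum of 6 smooth muscle and pericyte markers was 118 to 155 FPKM against 239 to 279 FPKM, that of 7 fibroblast markers 389 to 699 FPKM against 441 to 465 FPKM, and that of 6 macrophage and leukocyte markers 632 to 809 FPKM against 474 to 733 FPKM. No marker of these lists was at 0 in all libraries. In RNA of a whole tissue, fewer cells of a type and less RNA per cell cannot be told apart. The part of cell makeup in the values below was not tested. The division by cardiomyocyte markers given further on is a description and no test of cell makeup.

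The 9 genes did not move as a block. By the threshold used for all genes, Trim54 and Trim63 were higher in the libraries labelled Nat10-CKO, Fbxo32, Asb14 and Asb15 were lower, and Trim55, Asb2, Asb11 and Asb18 were not past the threshold. That is 2 of 9 higher and 3 of 9 lower, where all tested genes gave 24.4% and 16.0%. For the same 5 genes the values of the groups did not overlap, as for 55.9% of all tested genes. Nothing is read from these shares, since the genes were chosen from this contrast. The median log2 fold change of the 9 genes was -0.11, and that of all tested genes was 0.03.

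**Figure D1:**
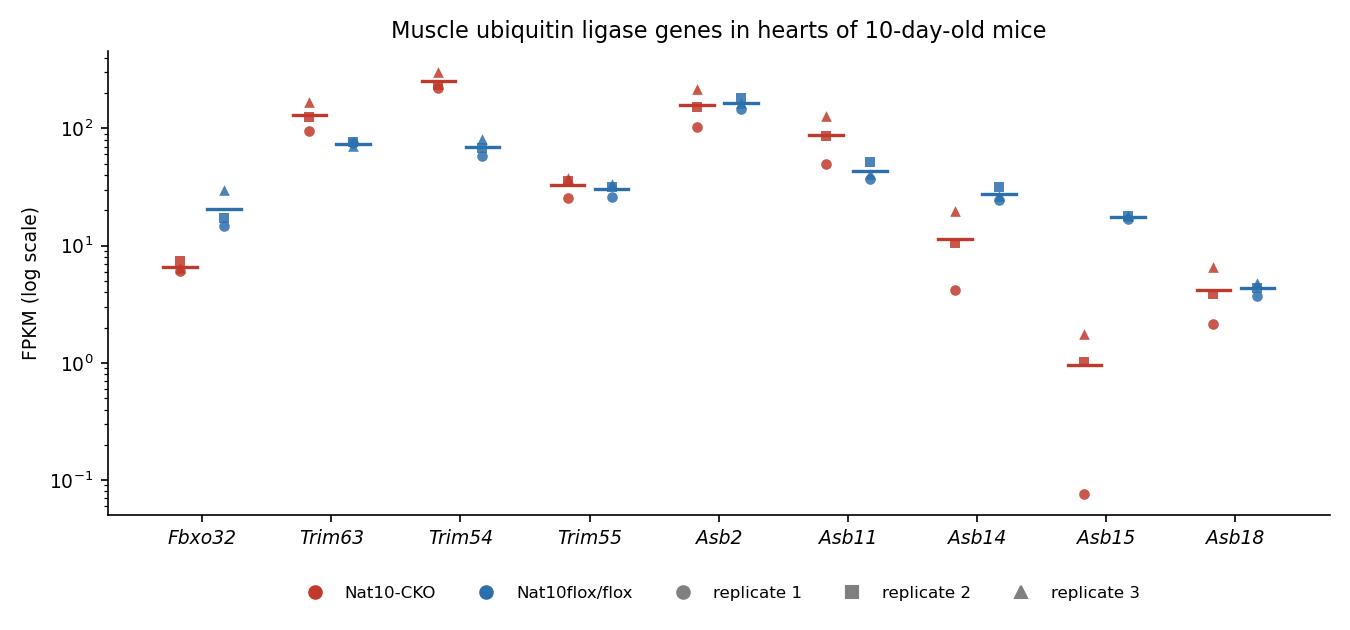
FPKM of the 9 genes in each of the 6 libraries, on a log axis, with Nat10-CKO (red) left of Nat10flox/flox (blue) for each gene. Points are libraries, their shape marks the replicate, and short lines are group means. Trim54 and Trim63 sit higher in every library labelled Nat10-CKO than in any Nat10flox/flox library, Fbxo32, Asb14 and Asb15 sit lower in every one, and the other 4 genes overlap.

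The order of the genes by level differed between the groups. FPKM is scaled by the gene length in the file, so levels can be set side by side as far as those lengths hold. In the libraries labelled Nat10-CKO, Trim54 led with a mean of 252 FPKM, followed by Asb2 at 157, Trim63 at 129, Asb11 at 87.3, Trim55 at 33.0, Asb14 at 11.5, Fbxo32 at 6.63, Asb18 at 4.21 and Asb15 at 0.950 FPKM. In the Nat10flox/flox libraries, Asb2 led with a mean of 164 FPKM, followed by Trim63 at 73.9, Trim54 at 68.7, Asb11 at 43.0, Trim55 at 30.5, Asb14 at 27.6, Fbxo32 at 20.6, Asb15 at 17.4 and Asb18 at 4.31 FPKM. Among neighbours in the first order, the libraries overlapped between Asb2 and Trim63, Trim63 and Asb11, Asb14 and Fbxo32, and Fbxo32 and Asb18. Among neighbours in the second, they overlapped between Trim63 and Trim54, Trim55 and Asb14, Asb14 and Fbxo32, and Fbxo32 and Asb15. These overlaps compare ranges over the libraries of a group. Within each library labelled Nat10-CKO, Asb2 still stood above Trim63 and Trim63 above Asb11. Trim55 stood above Asb14 within each Nat10flox/flox library, barely so in replicate 2 (31.81 against 31.80 FPKM). The other overlapping pairs changed order between libraries. Trim54 thus stood above Trim63 in each library labelled Nat10-CKO, and the pair was not separated in the Nat10flox/flox libraries.

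Promoter sequence is shown for the genes whose upstream bases held a motif of muscle or FOXO regulation, and for Asb15, which differed most. RefSeq start windows (GRCm38.p6 table) were present for 7 of the 9 genes, and each matched GRCm39 exactly once, so GRCm39 coordinates are given. Fbxo32 and Trim55 were not in the table. Both strands were searched from 250 bases before the start to 50 after it for the FOXO motif TGTTTAC, the E-box CAGCTG bound by myogenic factors, the MEF2 motif and the CArG box of serum response factor. Each sequence below is the 250 bases before the start, written 5′ to 3′ on the strand of the gene, with motif matches in capitals. No matches overlapped.
Trim63 (chr4:134042181-134042430, plus strand): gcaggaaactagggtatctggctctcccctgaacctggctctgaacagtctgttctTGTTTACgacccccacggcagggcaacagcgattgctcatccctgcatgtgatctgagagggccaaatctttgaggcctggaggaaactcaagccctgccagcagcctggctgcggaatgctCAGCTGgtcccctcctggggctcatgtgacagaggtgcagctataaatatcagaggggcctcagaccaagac
Trim54 (chr5:31273706-31273955, plus strand): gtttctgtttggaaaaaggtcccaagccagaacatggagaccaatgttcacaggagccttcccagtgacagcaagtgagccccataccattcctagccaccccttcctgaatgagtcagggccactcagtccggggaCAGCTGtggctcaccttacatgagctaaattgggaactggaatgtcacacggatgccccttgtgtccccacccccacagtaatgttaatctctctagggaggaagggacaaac
Asb14 (chr14:26616321-26616570, plus strand): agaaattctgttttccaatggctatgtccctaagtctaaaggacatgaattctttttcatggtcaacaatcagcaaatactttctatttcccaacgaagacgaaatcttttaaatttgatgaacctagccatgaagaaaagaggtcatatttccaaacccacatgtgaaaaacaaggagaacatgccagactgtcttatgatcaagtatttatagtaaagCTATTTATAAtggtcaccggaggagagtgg
Asb15 (chr6:24527893-24528142, plus strand): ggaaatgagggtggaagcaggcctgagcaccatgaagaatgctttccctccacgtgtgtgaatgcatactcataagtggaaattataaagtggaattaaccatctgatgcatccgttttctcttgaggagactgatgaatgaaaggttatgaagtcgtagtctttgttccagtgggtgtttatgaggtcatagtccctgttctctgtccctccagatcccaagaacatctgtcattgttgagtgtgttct
Asb2 (chr12:103322261-103322510, minus strand): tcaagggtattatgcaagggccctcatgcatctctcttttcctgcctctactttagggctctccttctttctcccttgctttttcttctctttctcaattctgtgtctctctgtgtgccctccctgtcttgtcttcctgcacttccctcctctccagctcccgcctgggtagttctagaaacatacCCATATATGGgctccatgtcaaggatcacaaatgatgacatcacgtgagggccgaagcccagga
Asb18 (chr1:89942389-89942638, minus strand): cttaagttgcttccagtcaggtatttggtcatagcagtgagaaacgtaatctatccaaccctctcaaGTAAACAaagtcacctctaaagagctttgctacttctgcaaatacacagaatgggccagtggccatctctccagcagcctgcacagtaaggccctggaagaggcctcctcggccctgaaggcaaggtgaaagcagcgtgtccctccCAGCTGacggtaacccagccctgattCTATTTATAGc

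Trim63 held a FOXO match beginning 194 bases and an E-box beginning 72 bases before its start, and Trim54 held an E-box 113 bases before its start. Asb18 held a FOXO match, read on the opposite strand, at 183 bases, an E-box at 37 bases and a MEF2 match at 11 bases before its start. Asb14 held a MEF2 match at 30 bases and Asb2 a CArG box at 64 bases before the start. Asb15 and Asb11 held none of these motifs in the window. Of all 32851 windows in the table, 3.65% held the FOXO motif, 16.3% the E-box, 3.19% the MEF2 motif and 1.63% the CArG box. A second RefSeq start window of Asb2, not shown, held an E-box 21 bases after its start. The genes with an E-box were thus Trim63 and Trim54, both higher in the libraries labelled Nat10-CKO, and Asb18 and Asb2, which overlapped between the groups. These matches describe letters only, and binding was not measured.

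Fbxo32 (gene ID 67731, chr15:58039275-58078288, minus strand, GRCm39) encodes atrogin-1, the F-box subunit that binds substrates of a cullin-1 ligase. It had 6.08, 7.37 and 6.45 FPKM in libraries labelled Nat10-CKO, against 14.6, 17.3 and 29.8 FPKM in the Nat10flox/flox libraries. The groups did not overlap, and Nat10flox/flox replicate 3 stood well above the other two of its group. The means were 6.63 ± 0.663 and 20.6 ± 8.10 FPKM (SD, n = 3 each), a 3.10-fold lower level in the libraries labelled Nat10-CKO, with a log2 fold change of -1.44 ± 0.25 (SE). Leaving out any 1 library kept the fold between 2.40 and 3.55. The log2 SD among Nat10flox/flox libraries was 0.51, larger than that of 94.7% of tested genes, whereas among libraries labelled Nat10-CKO it was 0.12. Fbxo32 was the sole gene of the 9 whose log2 SD was larger in the Nat10flox/flox libraries.

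The MuRF genes encode 3 closely related RING-finger ligases, and they differed from each other in the comparison. Trim54 (MuRF3; gene ID 58522, chr5:31273956-31294970, plus strand), whose protein binds microtubules and the sarcomere, had 220, 233 and 303 FPKM in libraries labelled Nat10-CKO, against 57.9, 67.5 and 80.8 FPKM in the Nat10flox/flox libraries. Each library labelled Nat10-CKO was above every Nat10flox/flox library. The means were 252 ± 44.8 and 68.7 ± 11.5 FPKM (SD, n = 3 each), 3.67-fold higher, with a log2 fold change of 1.86 ± 0.18 (SE). Its fold was the largest of the genes that were higher, and Trim54 was the most abundant of the 9 in the libraries labelled Nat10-CKO. Non-coding genes overlap Trim54, Asb2 and Fbxo32 on the opposite strand, with at most 1.16, 1.28 and 0.264 FPKM in any library. Use of the strand in counting is not stated in the sources used here.

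Trim63 (MuRF1; gene ID 433766, chr4:134042431-134056940, plus strand) encodes the MuRF protein best known in wasting muscle, where troponin I and myosin heavy chains are among its reported substrates. Its start window, shown above, held a FOXO match and an E-box. It had 94.2, 125 and 168 FPKM in libraries labelled Nat10-CKO, against 74.6, 76.2 and 71.0 FPKM in the Nat10flox/flox libraries. The Nat10flox/flox libraries lay close together, while those labelled Nat10-CKO were spread out above them without overlap. The means were 129 ± 36.9 and 73.9 ± 2.64 FPKM (SD, n = 3 each), 1.74-fold higher, with a log2 fold change of 0.76 ± 0.21 (SE). Trim63 no longer passed the threshold without Nat10-CKO replicate 2 or without any 1 of the Nat10flox/flox libraries, nor with quantile normalization, with no filter on low values, or on values recomputed after removal of the mitochondrial genes.

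Trim55 (MuRF2; gene ID 381485, chr3:19698591-19746748, plus strand), whose protein associates with titin and microtubules, had 25.4, 35.9 and 37.6 FPKM in libraries labelled Nat10-CKO, against 25.9, 31.8 and 33.8 FPKM in the Nat10flox/flox libraries. The groups overlapped through most of their range. The means were 33.0 ± 6.60 and 30.5 ± 4.11 FPKM (SD, n = 3 each), with a log2 fold change of 0.10 ± 0.18 (SE). The sign turned to -0.15 with quantile normalization and to -0.09 after removal of the mitochondrial genes.

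Together the MuRF genes summed to 340, 394 and 509 FPKM in libraries labelled Nat10-CKO, against 158, 175 and 186 FPKM in the Nat10flox/flox libraries. Trim54 made up 64.8%, 59.2% and 59.7% of that sum in the libraries labelled Nat10-CKO, against 36.5%, 38.5% and 43.5% in the Nat10flox/flox libraries. The share of Trim63 was 30.8 ± 2.74% in the libraries labelled Nat10-CKO and 42.9 ± 4.44% in the Nat10flox/flox libraries (SD, n = 3 each). Trim63 thus had a higher level but a smaller share of MuRF transcripts in the libraries labelled Nat10-CKO. The share of Trim55, whose level overlapped between groups, was 7.99 ± 0.972% against 17.6 ± 1.05%. The ratio of Trim54 to Trim63 was 2.34, 1.86 and 1.81 in the libraries labelled Nat10-CKO, against 0.776, 0.886 and 1.14 in the Nat10flox/flox libraries. Because both genes are read in the same library, this ratio does not depend on how libraries were scaled.

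The pair of best known wasting genes went opposite ways. The ratio of Trim63 to Fbxo32 was 15.5, 16.96 and 25.99 in the libraries labelled Nat10-CKO, against 5.12, 4.39 and 2.38 in the Nat10flox/flox libraries. The ratio did not overlap between groups, with Nat10flox/flox replicate 3, the library with the most Fbxo32, at the low end.

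**Figure D2:**
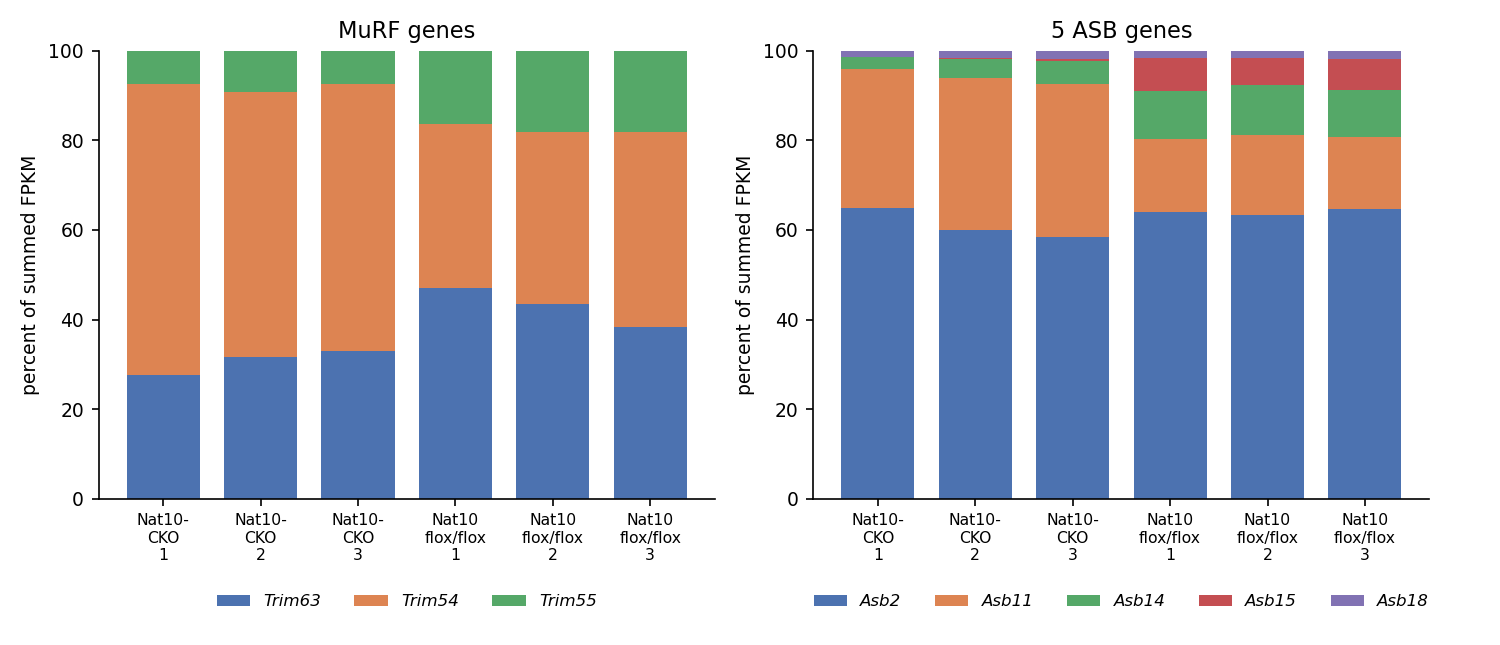
Share of each gene in the summed FPKM of the MuRF genes (left) and of the 5 ASB genes (right) in each library, in percent, with Nat10-CKO left of Nat10flox/flox. Trim54 takes 59.2% to 64.8% of the MuRF sum in the libraries labelled Nat10-CKO and 36.5% to 43.5% in the Nat10flox/flox libraries. Asb11 takes a larger share of the ASB sum in the libraries labelled Nat10-CKO, and Asb14 and Asb15 take smaller ones.

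Among the ASB genes, Asb15 differed most. Asb15 (gene ID 78910, chr6:24528143-24573163, plus strand), an ASB gene of striated muscle, had 0.0764, 1.02 and 1.75 FPKM in libraries labelled Nat10-CKO, against 16.7, 17.7 and 17.9 FPKM in the Nat10flox/flox libraries. These values rest on 14, 176 and 296 reads in the libraries labelled Nat10-CKO and on 3379, 2788 and 3158 reads in the Nat10flox/flox libraries. The exact Poisson 95% interval for the lowest library, which covers counting error only, was 0.0418 to 0.128 FPKM.

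The Asb15 means were 0.950 ± 0.840 and 17.4 ± 0.639 FPKM (SD, n = 3 each), 18.4-fold lower in the libraries labelled Nat10-CKO. With a mean under 1 FPKM in those libraries, Asb15 passed the filter only through the Nat10flox/flox libraries, so the filter favoured a fall. Leaving out Nat10-CKO replicate 3 made the fold 31.8, and leaving out Nat10-CKO replicate 1 made it 12.6. On the log2(FPKM + 1) scale the change was -3.34 ± 0.32 (SE), which understates the change of so low a level. It was -3.84 with a pseudocount of 0.5, -4.61 with a pseudocount of 0.1, and -5.10 with voom on recovered reads. All 3 Nat10flox/flox libraries agreed closely, whereas those labelled Nat10-CKO spanned 22.9-fold from lowest to highest.

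Asb14 (gene ID 142687, chr14:26616547-26638393, plus strand), another ASB gene, had 4.18, 10.6 and 19.6 FPKM in libraries labelled Nat10-CKO, against 24.4, 31.8 and 26.7 FPKM in the Nat10flox/flox libraries. The highest library labelled Nat10-CKO came near the lowest Nat10flox/flox library without reaching it. The means were 11.5 ± 7.75 and 27.6 ± 3.79 FPKM (SD, n = 3 each), 2.41-fold lower, with a log2 fold change of -1.41 ± 0.46 (SE). The fold was 3.73 without Nat10-CKO replicate 3. Asb14 no longer passed the threshold without Nat10-CKO replicate 2 or without any 1 of the Nat10flox/flox libraries, nor with a pseudocount of 0.1, with no filter on low values, without the trend, or with the protein-coding genes set to an equal total.

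Asb11 (gene ID 68854, chrX:163219976-163242166, plus strand), whose protein sits at the endoplasmic reticulum, had 49.3, 85.9 and 127 FPKM in libraries labelled Nat10-CKO, against 36.7, 51.2 and 41.2 FPKM in the Nat10flox/flox libraries. Only Nat10-CKO replicate 1 fell within the range of the Nat10flox/flox libraries. The means were 87.3 ± 38.8 and 43.0 ± 7.45 FPKM (SD, n = 3 each), 2.03-fold higher, with a log2 fold change of 0.92 ± 0.33 (SE) that did not pass the threshold. It passed without Nat10-CKO replicate 1, where the fold was 2.47, without both libraries numbered 1, with protein-coding genes rescaled, and with array weights.

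Asb2 (gene ID 65256, chr12:103287401-103322260, minus strand) encodes an adaptor that directs filamins to breakdown. It had 103, 152 and 216 FPKM in libraries labelled Nat10-CKO, against 145, 182 and 165 FPKM in the Nat10flox/flox libraries. The libraries labelled Nat10-CKO lay on both sides of the Nat10flox/flox libraries, with replicate 1 below them all and replicate 3 above them all. The means were 157 ± 56.9 and 164 ± 18.5 FPKM (SD, n = 3 each), with a log2 fold change of -0.12 ± 0.27 (SE) that turned to 0.15 without Nat10-CKO replicate 1 and to 0.04 with protein-coding genes rescaled.

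Asb18 (gene ID 208372, chr1:89880313-89942388, minus strand), the lowest ASB gene of the 5 in the Nat10flox/flox libraries, had 2.16, 3.86 and 6.61 FPKM in libraries labelled Nat10-CKO, against 3.75, 4.36 and 4.81 FPKM in the Nat10flox/flox libraries. As for Asb2, replicates 1 and 3 of the libraries labelled Nat10-CKO lay below and above all Nat10flox/flox libraries. The means were 4.21 ± 2.24 and 4.31 ± 0.536 FPKM (SD, n = 3 each), with a log2 fold change of -0.11 ± 0.30 (SE) that turned to 0.20 without Nat10-CKO replicate 1 and to 0.0057 with protein-coding genes rescaled. Asb18 shares its strand with the overlapping non-coding gene Gm41915, which reached 0.702 FPKM, so its low level is less certain. Its start window was the one that held a FOXO match, an E-box and a MEF2 match together.

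The summed level of the 5 ASB genes was 159, 254 and 371 FPKM in libraries labelled Nat10-CKO, against 226, 287 and 256 FPKM in the Nat10flox/flox libraries. The sum overlapped between the groups, and so did the shares of Asb2 and Asb18 in it, whereas the shares of Asb11, Asb14 and Asb15 did not. Asb11 made up 33.0 ± 1.72% in the libraries labelled Nat10-CKO and 16.7 ± 0.988% in the Nat10flox/flox libraries (SD, n = 3 each). Asb14 made up 4.03 ± 1.33% against 10.8 ± 0.321%, and Asb15 0.307 ± 0.227% against 6.85 ± 0.613%. The share of Asb2 was 61.1 ± 3.43% against 64.0 ± 0.614%, and that of Asb18 was 1.55 ± 0.211% against 1.69 ± 0.183%. The ratio of Asb11 to Asb14 was 11.8, 8.08 and 6.47 in the libraries labelled Nat10-CKO, against 1.505, 1.61 and 1.54 in the Nat10flox/flox libraries, where it was nearly constant.

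**Figure D3:**
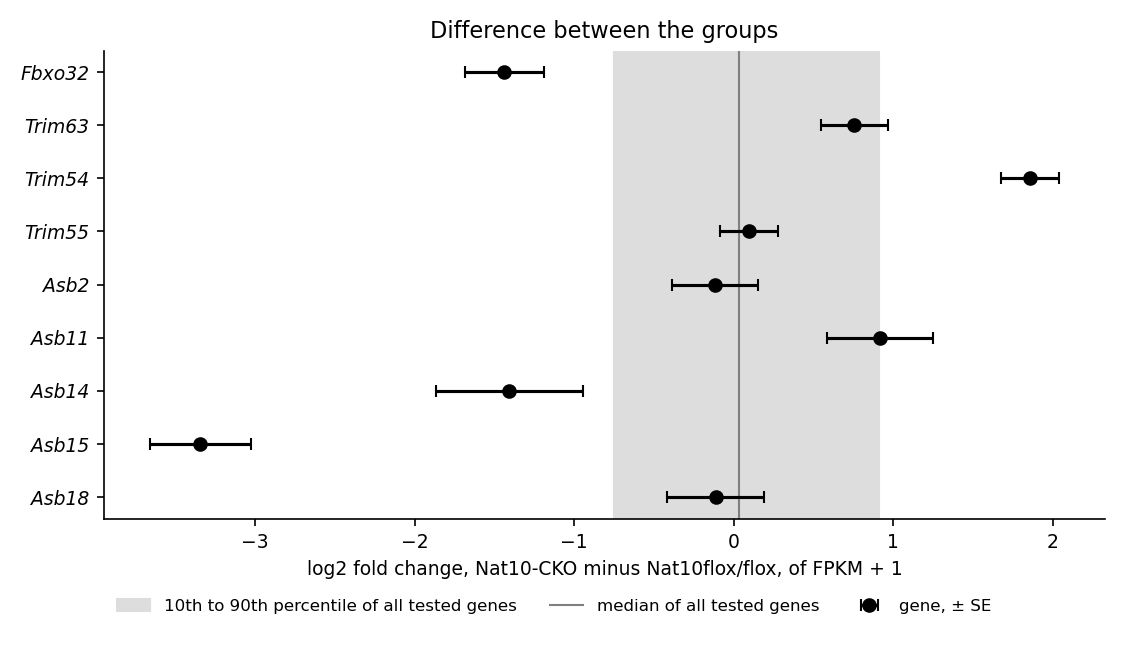
Log2 fold change of FPKM + 1, Nat10-CKO minus Nat10flox/flox, for each of the 9 genes, with its standard error. The grey band runs from the 10th to the 90th percentile of all tested genes (-0.75 to 0.91) and the line marks their median of 0.03. Trim54 lies above the band, Fbxo32, Asb14 and Asb15 lie below it, and Asb11 lies at its upper edge.

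A pattern that ran through the 9 genes was the spread within the libraries labelled Nat10-CKO. Nat10-CKO replicate 1 was the lowest library of its group for 9 of the 9 genes, as it was for 43.0% of all tested genes. Replicate 1 was lowest and replicate 3 highest for 8 of the 9, with Fbxo32 the exception, as for 28.0% of all tested genes. The log2 SD was larger in the libraries labelled Nat10-CKO than in the Nat10flox/flox libraries for 8 of the 9 genes, again except Fbxo32, and for 63.3% of all tested genes.

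The ASB genes were the most spread. The log2 SD among the libraries labelled Nat10-CKO exceeded that of 99.1% of tested genes for Asb14, 96.9% for Asb15, 96.6% for Asb11, 95.8% for Asb18 and 93.0% for Asb2. For the MuRF genes it exceeded that of 86.7% for Trim63, 74.8% for Trim55 and 66.2% for Trim54, and for Fbxo32 it exceeded that of 31.3%. Genes at low and high levels were both among the spread ones, since Asb2 had a mean level above 97.4% of tested genes and Asb18 above 35.3%. This spread was not a trait of all ASB genes. In the other tested ASB genes it exceeded that of 1.70% (Asb1) to 67.3% (Asb3) of tested genes, and 99.2% for Asb10. Nor was it particular to ASB genes. Among cardiomyocyte markers it was 96.2% for Actc1 and 95.3% for Mybpc3, and 11.7% (Tnnc1) to 87.4% (Myl2) for the others.

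**Figure D4:**
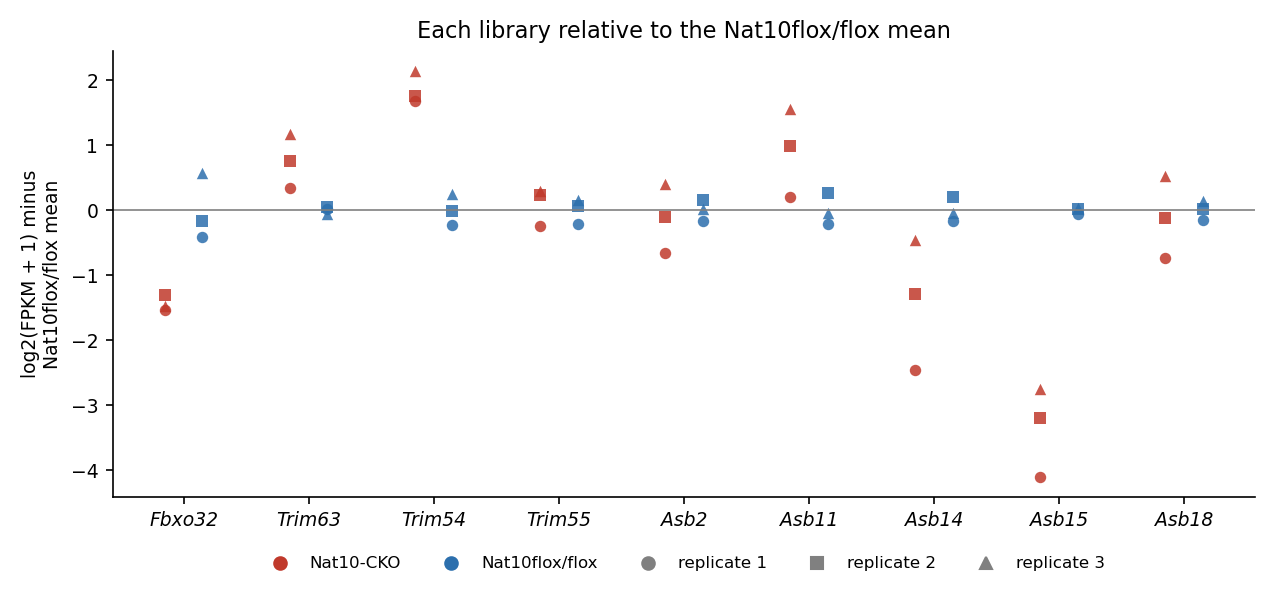
Level of each of the 9 genes in every library as log2(FPKM + 1) minus the mean of the Nat10flox/flox libraries, with Nat10-CKO (red) left of Nat10flox/flox (blue) and 1 point shape per replicate. Within the libraries labelled Nat10-CKO, replicate 1 is the lowest point for all 9 genes and replicate 3 the highest for 8 of them, Fbxo32 being the exception.

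Nat10-CKO replicate 1 also had the lowest sum of cardiomyocyte markers, so each gene was set against that sum in the same library. The markers did not all share that low value. In Nat10-CKO replicates 1, 2 and 3, Tnnt2 had 4301, 3395 and 4248 FPKM and Tnnc1 had 1369, 1404 and 1280 FPKM. The other markers were lowest in replicate 1, Actc1 with 2345, 5436 and 4801 FPKM. Actc1 was also lower in every library labelled Nat10-CKO than in any Nat10flox/flox library. Values on this scale thus depend on the markers summed. Per 1000 FPKM of the 8 markers, Trim55 had 1.91, 1.98 and 1.96 FPKM in libraries labelled Nat10-CKO, against 1.46, 1.62 and 1.57 FPKM in the Nat10flox/flox libraries. On this scale Trim55 was nearly constant within the libraries labelled Nat10-CKO, its highest value being 1.03 times its lowest, and 1.26-fold above the Nat10flox/flox mean. The corresponding span was 1.27-fold for Trim63, 1.29-fold for Trim54 and 1.36-fold for Fbxo32. For the ASB genes it was 1.45-fold for Asb2, 1.78-fold for Asb11, 2.12-fold for Asb18, 3.25-fold for Asb14 and 15.9-fold for Asb15.

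The differences between groups kept their direction on this scale for the genes past the threshold. Marker sums overlapped between the groups, at 13295 to 19215 FPKM against 17769 to 21495 FPKM in the Nat10flox/flox libraries. Division by them could therefore hardly turn the larger differences, and nothing about cell makeup is read from it. Per 1000 FPKM of markers, Trim54 was 4.32-fold and Trim63 1.99-fold higher in the libraries labelled Nat10-CKO, and Asb15 was 17.5-fold, Fbxo32 2.57-fold and Asb14 2.21-fold lower. Asb11 was 2.28-fold higher. Asb2 and Asb18 were each 1.09-fold higher, where the unscaled means had been slightly lower in the libraries labelled Nat10-CKO.

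Profiles most like each gene were found by the distance between log2 values centred on each gene's mean, over all 6 libraries and all tested genes. Nearest to Trim54 were Filip1 (distance 0.21) and Mcrip2 (0.24), where the median distance of all tested genes was 2.33. Trim63 lay nearest to Gpatch1 (0.11) and Bcl2 (0.17), and Trim55 to Pgm1 (0.11), an enzyme of glycogen metabolism, and Mrpl13 (0.13), a mitochondrial ribosomal protein. Iqgap3 (0.40) and the muscle sodium channel gene Scn4a (0.41) were nearest to Fbxo32. Iqgap3 and Scn4a were low, at 0.223 to 0.342 and 0.352 to 0.560 FPKM in libraries labelled Nat10-CKO, against 1.39 to 2.87 and 2.66 to 4.66 FPKM in the Nat10flox/flox libraries.

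For the ASB genes, Asb11 lay nearest to Ugp2 (0.27), which makes UDP-glucose for glycogen, and Lrrc2 (0.33). Asb14 lay nearest to Fndc5 (0.35), the precursor of irisin, and Hrc (0.38), a calcium-binding protein of the sarcoplasmic reticulum. Hrc had 59.6, 118 and 175 FPKM in libraries labelled Nat10-CKO, against 259, 304 and 312 FPKM in the Nat10flox/flox libraries, with the same low replicate 1 as Asb14. Asb2 lay nearest to Zfp629 and Fn3k (0.13 each), and Asb18 to Trmt5 and Esrrg (0.18 each), the second of which encodes an orphan nuclear receptor of oxidative muscle.

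Asb15 lay nearest to Mir208b (0.25) and Rpl3l (0.35), the muscle paralogue of a ribosomal protein. Rpl3l had 3.16, 7.34 and 12.4 FPKM in libraries labelled Nat10-CKO, against 78.8, 85.9 and 97.0 FPKM in the Nat10flox/flox libraries. The value of Mir208b is uncertain, since this short gene lies within Myh7 on the same strand and reads of either may have been counted to it. Mir208b had 17.3, 34.8 and 42.0 FPKM in libraries labelled Nat10-CKO, against 263, 282 and 335 FPKM in the Nat10flox/flox libraries. Myh7, given further on, differed in the opposite direction. The source of the reads counted to Mir208b was not tested. Within the 9 genes, Asb2 and Asb18 were the closest pair, at a distance of 0.23.

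Turning to the wider ASB family, the table held 18 ASB genes, of which 15 were tested. Of the 10 tested ASB genes outside the 5 above, 2 rose, 3 fell and 5 did not pass the test. Over all tested genes, 24.4% were higher and 16.0% lower, and nothing about the family is read from this count. Asb5 rose 7.44-fold, to 12.8 ± 1.29 FPKM in libraries labelled Nat10-CKO, against 1.72 ± 0.220 FPKM in the Nat10flox/flox libraries (SD, n = 3 each; limma adjusted p = 0.000136). Asb6 rose 2.32-fold, to 15.5 ± 2.37 FPKM against 6.69 ± 1.44 FPKM (limma adjusted p = 0.00289). In the other direction, Asb12 fell 3.95-fold, to 1.07 ± 0.156 FPKM in libraries labelled Nat10-CKO, against 4.21 ± 0.0931 FPKM in the Nat10flox/flox libraries (limma adjusted p = 0.000391). Asb5 and Asb6 passed the test under each of the 20 alternatives, and Asb12 under each but the filter at a mean of 5 FPKM, where it was not tested. As these genes had among the smallest adjusted p of the main fit, that is no independent evidence.

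Asb4 fell 3.41-fold, to 0.462 ± 0.256 FPKM against 1.57 ± 0.720 FPKM (limma adjusted p = 0.0359), and Asb8 fell 1.35-fold, to 20.9 ± 2.00 FPKM against 28.3 ± 3.45 FPKM (limma adjusted p = 0.0397). Asb4 was under 1 FPKM in every library labelled Nat10-CKO and passed the filter only through the Nat10flox/flox libraries. The filter thus favoured a fall of Asb4, and its p-value is no independent evidence. Asb4 no longer passed without Nat10-CKO replicate 2 or 3 and was not tested without Nat10flox/flox replicate 2 or 3, and Asb8 no longer passed without Nat10-CKO replicate 1 or 2 or Nat10flox/flox replicate 2 or 3. Asb10 had 8.68, 26.8 and 37.4 FPKM in libraries labelled Nat10-CKO, against 29.5, 38.1 and 33.7 FPKM in the Nat10flox/flox libraries, with replicate 1 again the lowest. Asb1, Asb3, Asb7 and Asb13 had means of 3.41, 1.98, 1.57 and 2.95 FPKM in libraries labelled Nat10-CKO, against 3.30, 2.04, 1.83 and 3.80 FPKM in the Nat10flox/flox libraries. Asb16 was below the filter, with 2, 8 and 1 reads in the libraries labelled Nat10-CKO, against 48, 32 and 75 reads in the Nat10flox/flox libraries. Asb9 had 2 reads and Asb17 had 1 read over all libraries.

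**Figure D5:**
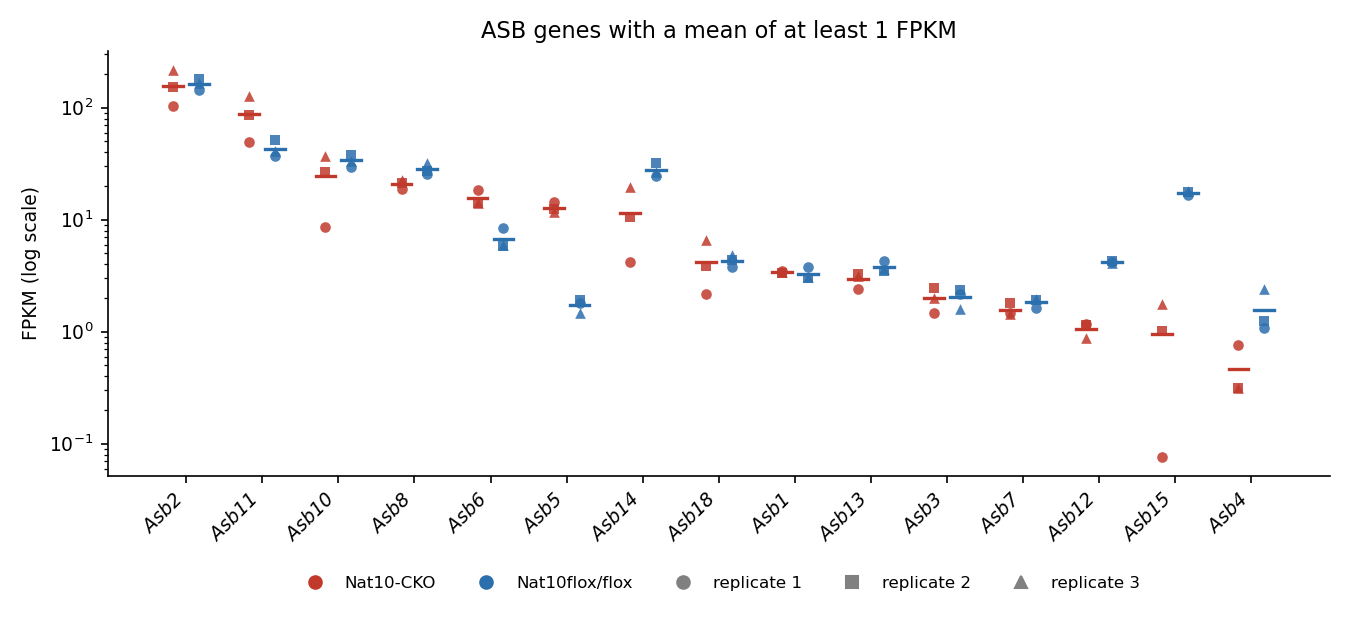
FPKM of the 15 tested ASB genes in each library, on a log axis, with Nat10-CKO (red) left of Nat10flox/flox (blue) for each gene. Points are libraries, their shape marks the replicate, and short lines are group means. Asb5 and Asb6 are higher in every library labelled Nat10-CKO, Asb15, Asb14, Asb13, Asb12, Asb8 and Asb4 are lower in every one, and Asb2 remains among the most abundant in both groups.

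The parts of the cullin-5 ligase that ASB proteins join were listed with the other ASB genes, 19 genes of which 16 were tested. In this list 4 rose, 5 fell and 7 did not pass, with a median log2 fold change of -0.09 beside 0.03 for all tested genes. Of all tested genes, 24.4% rose and 16.0% fell, and these shares belong beside the counts of this and each list below. Nothing is read from those counts. Ube2f, which charges cullin-5 with NEDD8, rose 2.14-fold, to 22.9 ± 3.08 FPKM in libraries labelled Nat10-CKO, against 10.7 ± 0.167 FPKM in the Nat10flox/flox libraries (SD, n = 3 each; limma adjusted p = 0.00113). There were 4 rises with any 1 library left out. The 5 falls became 1 without Nat10-CKO replicate 2 or Nat10flox/flox replicate 3, 2 without Nat10flox/flox replicate 2, and 3 without Nat10-CKO replicate 1 or Nat10flox/flox replicate 1.

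Among 13 F-box genes and partners of the cullin-1 ligase that Fbxo32 joins, 12 were tested, of which 4 rose, 4 fell and 4 did not pass (median log2 fold change -0.14). Skp1, the adaptor that links F-box proteins to cullin-1, fell 2.96-fold, to 25.97 ± 2.06 FPKM in libraries labelled Nat10-CKO, against 77.0 ± 32.6 FPKM in the Nat10flox/flox libraries (SD, n = 3 each; limma adjusted p = 0.00698). Its Nat10flox/flox libraries were uneven, at 114, 51.6 and 65.5 FPKM. Fbxw7 fell 1.65-fold (limma adjusted p = 0.00496), while Fbxo30 rose 2.04-fold (limma adjusted p = 0.00310) and Fbxw11 rose 1.61-fold (limma adjusted p = 0.00241). The 4 rises became 2 when Nat10-CKO replicate 3 or Nat10flox/flox replicate 1 or 2 was left out.

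Of 31 other ubiquitin ligases and kelch adaptors of muscle, 29 were tested, of which 9 rose, 2 fell and 18 did not pass (median log2 fold change 0.26). After removal of the mitochondrial genes and rescaling, 9 fell. That rescaling moved the median of all tested genes from 0.03 to -0.12, so the balance of directions depends on the scaling. Mdm2, the ligase of p53, rose 2.99-fold, to 24.3 ± 2.82 FPKM in libraries labelled Nat10-CKO, against 8.11 ± 0.723 FPKM in the Nat10flox/flox libraries (SD, n = 3 each; limma adjusted p = 0.000423). The cullin gene Cul7 rose 1.76-fold (limma adjusted p = 0.00106). Klhl33, a kelch gene, fell 14.6-fold, to 0.435 ± 0.182 FPKM against 6.37 ± 2.05 FPKM (limma adjusted p = 0.000541). Its mean in the libraries labelled Nat10-CKO was under 1 FPKM, so Klhl33 passed the filter only through the Nat10flox/flox libraries. The other fall was Rnf207, a cardiac RING-finger gene named after its values were seen, at 8.03 ± 3.03 FPKM against 34.2 ± 2.44 FPKM (limma adjusted p = 0.00147). Without Nat10-CKO replicate 3 there were 4 falls.

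Among 21 genes of ubiquitin and its activating and conjugating enzymes, 20 were tested, of which 6 rose, 4 fell and 10 did not pass (median log2 fold change 0.17). Uba1, the main ubiquitin-activating enzyme, rose 1.76-fold, to 104 ± 8.76 FPKM in libraries labelled Nat10-CKO, against 58.7 ± 0.714 FPKM in the Nat10flox/flox libraries (SD, n = 3 each; limma adjusted p = 0.00189). The conjugating enzyme genes Ube2d3 and Ube2j2 rose 2.20-fold and 2.36-fold (limma adjusted p = 0.00257 and 0.000556). The 4 falls became 2 without Nat10-CKO replicate 2, and 1 without Nat10flox/flox replicate 2 or without replicate 3.

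Upstream of the wasting genes, 42 regulators were listed and 36 tested, of which 10 rose, 2 fell and 24 did not pass (median log2 fold change 0.22). Igf1r, the receptor of insulin-like growth factor, rose 2.71-fold, to 5.54 ± 0.347 FPKM in libraries labelled Nat10-CKO, against 2.04 ± 0.198 FPKM in the Nat10flox/flox libraries (SD, n = 3 each; limma adjusted p = 0.000554). Pdpk1, a kinase that activates AKT, rose 1.86-fold (limma adjusted p = 0.00557), Tfeb, a regulator of lysosomal genes, 1.88-fold (limma adjusted p = 0.00366), and Smad4 1.58-fold (limma adjusted p = 0.00750). The 2 falls, named after their values were seen, were Nr3c1, the glucocorticoid receptor, at 7.29 ± 1.14 FPKM against 10.7 ± 0.932 FPKM (limma adjusted p = 0.0209), and Smad3, at 3.34 ± 0.380 FPKM against 4.89 ± 0.371 FPKM (limma adjusted p = 0.0183). Nr3c1 no longer passed without Nat10-CKO replicate 2 or Nat10flox/flox replicate 2 or 3, and Smad3 without Nat10flox/flox replicate 1 or 2. Without Nat10flox/flox replicate 2 there were 6 rises and 0 falls, and without Nat10-CKO replicate 2 or Nat10flox/flox replicate 3 there was 1 fall.

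The genes of 3 FOXO factors, also looked at after their values were seen, did not pass the test. Foxo1 had 5.02 ± 0.228 FPKM in libraries labelled Nat10-CKO and 6.75 ± 1.09 FPKM in the Nat10flox/flox libraries (SD, n = 3 each; limma adjusted p = 0.0591). Foxo3 had 19.1 ± 5.15 FPKM and 19.8 ± 3.36 FPKM (limma adjusted p = 0.829). Foxo4 had 9.04 ± 1.08 FPKM and 11.5 ± 0.337 FPKM (limma adjusted p = 0.0528). Foxo1 and Foxo4 passed as lower in 5 of the 20 alternatives each, Foxo1 among them without Nat10flox/flox replicate 1, and both after removal of the mitochondrial genes. FOXO proteins are controlled largely by phosphorylation, which RNA levels do not measure.

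Other genes that respond to FOXO factors or glucocorticoids in wasting muscle numbered 23, all tested, of which 7 rose, 3 fell and 13 did not pass (median log2 fold change 0.21). After removal of the mitochondrial genes, 6 fell. Fkbp5, a co-chaperone induced by glucocorticoids, rose 6.79-fold, to 43.1 ± 11.4 FPKM in libraries labelled Nat10-CKO, against 6.35 ± 2.51 FPKM in the Nat10flox/flox libraries (SD, n = 3 each; limma adjusted p = 0.000939). Eif4ebp1, an inhibitor of translation initiation, rose 2.52-fold, to 198 ± 11.1 FPKM against 78.8 ± 7.84 FPKM (limma adjusted p = 0.000565). Usp19, a deubiquitinase, rose 2.31-fold (limma adjusted p = 0.000675). Gadd45a fell 3.21-fold, to 2.74 ± 0.768 FPKM against 8.78 ± 1.61 FPKM (limma adjusted p = 0.00180). Fkbp5 and Gadd45a thus differed in opposite directions within this list, as Trim63 and Fbxo32 did among the ligases.

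Reported substrates and binding partners of the 9 ligases numbered 24, of which 22 were tested, 3 rose, 4 fell and 15 did not pass (median log2 fold change -0.12). Filamin C, encoded by Flnc, rose 11.4-fold, to 498 ± 218 FPKM in libraries labelled Nat10-CKO, against 43.6 ± 5.35 FPKM in the Nat10flox/flox libraries (SD, n = 3 each; limma adjusted p = 0.000639). The slow myosin heavy chain gene Myh7 rose 48.5-fold (limma adjusted p = 0.000167), and the autophagy receptor gene Sqstm1 rose 3.05-fold (limma adjusted p = 0.000279). Tnni3, which encodes cardiac troponin I, fell 2.97-fold, to 558 ± 151 FPKM against 1660 ± 110 FPKM (limma adjusted p = 0.00211). The 4 falls became 2 without Nat10flox/flox replicate 2 or without replicate 3. Protein levels of these substrates were not measured.

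The 28 genes that the naming rule took from these lists kept their call and their direction under each of the 20 alternatives in which they were tested. They had been picked for the smallest adjusted p of the main fit. Keeping the call was thus largely set by that choice and is no independent evidence. Of these genes, 4 (Asb12, Fbxo30, Igf1r and Klhl33) were not tested with the filter at a mean of 5 FPKM. In the named lists the share of members past the threshold ran from 31.8% for the substrates to 66.7% for the F-box list. Of all tested genes, 40.5% passed, 24.4% higher and 16.0% lower.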

How the data were processed

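Poly-T selected RNA from whole hearts was made into directional libraries and sequenced as read pairs, per the labels' protocols, with 3 libraries per group. Per the series' design text, HISAT2 2.2.1 placed the reads on GRCm39 and featureCounts 2.0.6 counted them per gene. CASAVA and DESeq2 1.42.0 are further tools in the submitters' processing notes. The authors deposited FPKM per gene and library, with coordinates and gene lengths per the file headers. The sources used here do not give the strand setting of the counting. FPKM times gene length came in whole steps of 1 read for 100% of values (tolerance 0.01 read), so reads per gene could be recovered. The library scaling matched median-of-ratios size factors (ratio 1), so the deposited values carry that normalization. Each read counted for 0.0246 to 0.0316 FPKM at a gene length of 1 kb.

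The group comparison used limma 3.58.1 (R 4.3.3) on log2(FPKM + 1), two-sided, with an intensity trend and Benjamini-Hochberg adjustment, over genes with a mean of at least 1 FPKM. The threshold was an adjusted p under 0.05. Folds are ratios of mean FPKM. The 3 replicates per group are biological per the labels, and no batch is named there. The labels do not say that replicate numbers pair the animals, so no block was used in the main fit. Deviations of libraries with the same number correlated at 0.06, 0.04 and 0.11, which cannot settle whether animals were paired. The 9 genes, the gene lists and the markers were chosen with earlier results of these data known. Named genes are the 9, Nat10, the 4 genes of each list with the smallest adjusted p, the tested ASB genes, and the 2 genes nearest to each of the 9 by profile; not every gene the rule takes is reported here. Of overlapping genes, the share of reads cannot be settled from the table. Promoter windows came from RefSeq (GRCm38.p6) and were matched to GRCm39. Alternatives covered the pseudocount, the filter, the trend, the scaling, voom on recovered reads, array weights, a replicate block and each library left out; scaling by total reads was chosen after seeing the data. Python 3.11.15 with matplotlib 3.10.9 drew the figures.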

Additional observations from a re-analysis of the deposited data

How the results depend on the processing

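With 3 libraries per group, small differences of the spread-out ASB genes cannot be resolved, and counts by direction follow the scaling. The count of genes lower in the libraries labelled Nat10-CKO was 1159 with a mean of at least 5 FPKM, 2954 after removal of the mitochondrial genes and 3007 with array weights. Higher calls made up 60.4% of calls, 41.7% after removal of the mitochondrial genes, 52.7% after quantile normalization and 72.4% once protein-coding genes were rescaled. The last moved the median log2 fold change of all genes to 0.17. With no filter, 2 F-box genes were higher, 3 cullin-5 and ASB genes lower and 2 substrates lower. With a mean of at least 5 FPKM, 3 cullin-5 and ASB genes were lower. With protein-coding genes rescaled, 1 cullin-5 or ASB gene and 1 upstream regulator were lower, and 5 substrates were higher and 2 lower. After removal of the mitochondrial genes, 9 other ligases, 5 upstream regulators, 6 FOXO or glucocorticoid genes and 7 substrates were lower, and 6 upstream regulators higher. Quantile normalization gave 6, 4 and 6 lower among other ligases, upstream regulators and FOXO or glucocorticoid genes, array weights 8, 5 and 6 lower with 14 other ligases higher, and total reads 5 lower among other ligases and 4 lower among upstream regulators. The cause of these moves was not tested.

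With 1 library left out, 2120 to 3104 genes were higher and 1162 to 1951 lower. The ranges of higher and lower list members were 2 to 3 and 3 to 5 (F-box), 4 to 4 and 1 to 4 (cullin-5 and ASB), 7 to 10 and 2 to 4 (other ligases), 4 to 7 and 1 to 4 (ubiquitin enzymes), 6 to 10 and 0 to 2 (upstream), 5 to 8 and 2 to 4 (FOXO or glucocorticoid), and 3 to 4 and 2 to 5 (substrates). A replicate block gave 2666 genes higher and 1724 lower, 3 cullin-5 and ASB genes lower, and Asb11 past the threshold. Deviations of libraries with the same number correlated only weakly, and not every library correlated best with its own number. These correlations cannot settle whether the numbers pair animals. Without both libraries numbered 1, 3 of the 9 genes were higher and 3 lower. Trim55 had a log2 fold change of -0.0046 without Nat10-CKO replicate 3 and -0.0123 without Nat10flox/flox replicate 1. Asb2 and Asb18 reached 0.07 and 0.12 without both libraries numbered 1. The planned count-model fits, and the planned other normalization of the recovered reads, were not run; voom on those reads was.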
